A study of Mus musculus with 629 samples.

Results

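The genes described here are 6 receptors and 1 enzyme of purine signalling: P2ry12, P2ry13, Gpr34, P2ry6, P2rx4, P2rx7 and Entpd1. They were taken by gene symbol from the deposited table of raw counts, as 7 of its 53546 gene symbols, and all 7 had a row. Their levels were read in 215 cells labelled microglia and 400 labelled macrophages, by Notch3 genotype and by plate, and across single cells. The choice used no measured value, although earlier results of these data were known when it was made. The cells came from adult C57BL/6 mice that carried SM22-Cre and a Rosa26-stop-tdTomato reporter, in which Cre driven by a smooth muscle promoter switches on a red protein. Brain cells were sorted by fluorescence into 384-well plates and sequenced by SMART-seq2, a full-length method without molecular identifiers. Which fluorescence gate the macrophages and microglia came from is not stated. The groups were KO, mice lacking Notch3 (78 microglia and 119 macrophages), Het (58 and 70) and WT (79 and 211), and all carried the same reporter alleles. A further 14 cells had a type named only 7.

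Cells that are damaged or active release ATP, ADP and UDP, and neighbouring myeloid cells sense these nucleotides through surface receptors. P2ry12 and P2ry13 are receptors for ADP that couple to inhibitory G proteins, and P2ry12 directs the extension of microglial processes toward injury. Gpr34 belongs to the same receptor family by sequence but is known as a receptor for lysophosphatidylserine. P2ry6 responds to UDP and has been tied to phagocytosis by microglia. P2rx4 and P2rx7 are cation channels opened by ATP, and P2rx7, which needs much more ATP, is the classical trigger of the Nlrp3 inflammasome. Entpd1, also called CD39, cuts ATP and ADP to AMP and so ends the nucleotide signal. P2ry12 is widely used as a marker that separates microglia from other brain macrophages.

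A level is the number of counts summed over the cells of a group and scaled to CPM by the total of all genes other than Rn18s, with an exact Poisson 95% interval. Counts can be PCR copies of 1 molecule, so these intervals cover counting error only. No label names an animal, and each deposited sample is 1 cell. A genotype within a cell type was therefore treated as 1 sample, and no test between groups was run. The spread is shown by pools, the cells of 1 genotype and 1 cell type on 1 plate. There were 8 pools of microglia and 8 of macrophages, of 15 to 138 cells. KO had plates 060s and 524s, Het had 056s, 524s and 529s, and WT had 059s, 529s and 530s. Summed levels weight cells by depth, and Het levels rested mainly on plate 056s. That plate gave 33892157 of the 39050977 Het macrophage counts without Rn18s, from 35 of 70 cells. It also gave 16108054 of the 25118884 Het microglia counts, from 15 of 58 cells. Where a plate held 1 genotype, plate and genotype cannot be told apart. Cells held between 1488 and 2107020 gene counts without Rn18s, and the median cell 213524. Xist and Ddx3y placed each pool in 1 sex. The pools KO 060s, Het 056s, Het 524s, WT 059s and WT 529s were male and KO 524s, Het 529s and WT 530s were female. Each genotype thus came from more than 1 animal, but how many animals a pool holds is not stated. Notch3 itself had counts in 6 of 629 cells, which does not allow a check of the genotypes.

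The first question was how the purine genes divide between microglia and macrophages. P2ry12, P2ry13 and Gpr34 were 17.2-fold, 4.16-fold and 5.52-fold higher in microglia, and for each of them every microglia pool lay above every macrophage pool. P2rx4 went the other way and was lower in every microglia pool than in any macrophage pool, at 0.525 times the macrophage level over all cells. P2rx7 stood at 0.726 times the macrophage level, P2ry6 at 0.953 times and Entpd1 at 1.47 times. Of the 7 genes, 3 were at least 2-fold higher in microglia and 0 at least 2-fold lower. Among the 6230 genes that reached 20 CPM and a count in 25% of cells in either type, 7.91% were at least 2-fold higher and 3.61% at least 2-fold lower. Pools did not overlap for 4 of the 7, with 3 above and 1 below, beside 3.03% above and 0.915% below among all genes. The median log2 ratio over all these genes was -0.01. How the cell type labels were made is not stated, and P2ry12 may have been among the genes used, so the contrast is a description without a test.

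**Figure D1:**
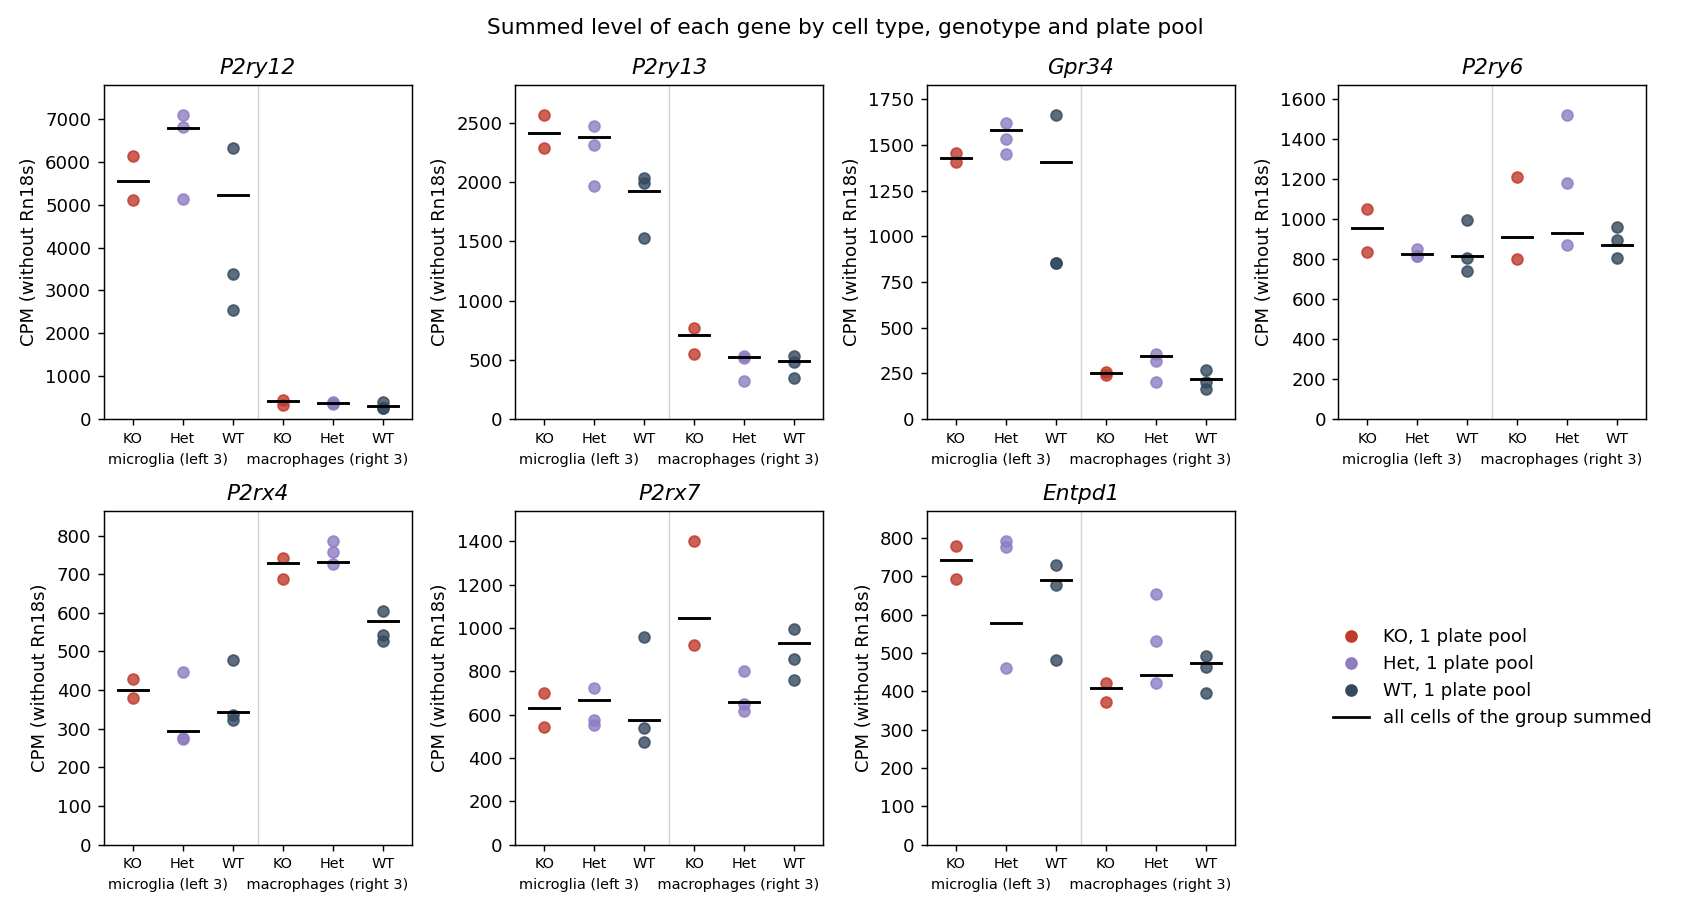
Summed level of each of the 7 genes in CPM without Rn18s, for KO, Het and WT microglia (left) and macrophages (right). Dots are plate pools and lines all cells of a group. P2ry12, P2ry13 and Gpr34 pools of microglia lie above all macrophage pools, and P2rx4 pools lie below.

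P2ry12 had 6133 and 5119 CPM in the KO microglia pools (060s, 524s), 7092, 5131 and 6819 CPM in the Het pools (056s, 524s, 529s) and 6325, 3394 and 2535 CPM in the WT pools (059s, 529s, 530s). In macrophages the KO pools had 443 and 335 CPM, the Het pools 355, 405 and 382 CPM, and the WT pools 396, 258 and 263 CPM. The lowest microglia pool was therefore still several times the highest macrophage pool, and the low pair among microglia, WT of plates 529s and 530s, was low in macrophages too. Summed over all cells P2ry12 stood at 5863 CPM (95% interval 5846 to 5881) in microglia and 340 CPM (337 to 344) in macrophages. The log2 ratio was 4.10, higher than 99.0% of the genes compared. Within the 8 pairs of pools of the same genotype and plate it ran between 3.26 (WT of 530s) and 4.32 (Het of 056s).

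P2ry13, the second ADP receptor, had 2566 and 2292 CPM in KO microglia, 2477, 1965 and 2318 CPM in Het microglia and 2034, 1994 and 1529 CPM in WT microglia. In KO macrophages it had 768 and 551 CPM, in Het macrophages 534, 316 and 519 CPM, and in WT macrophages 533, 344 and 482 CPM. Macrophages thus carried more of P2ry13 than of P2ry12 relative to microglia. The level over all cells was 2217 CPM (2206 to 2228) in microglia and 532 CPM (527 to 536) in macrophages, a log2 ratio of 2.06. It ran between 1.66 and 2.63 within the 8 pairs. The ratio of P2ry12 to P2ry13 was 2.65 in microglia and 0.640 in macrophages, on the CPM scale.

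Gpr34, the lysophosphatidylserine receptor, had 1457 and 1408 CPM in KO microglia, 1622, 1449 and 1529 CPM in Het microglia and 1662, 853 and 853 CPM in WT microglia. KO macrophages had 255 and 241 CPM, Het macrophages 355, 315 and 203 CPM, and WT macrophages 268, 165 and 203 CPM. As for P2ry12, the WT pools of plates 529s and 530s were the lowest of the microglia. Over all cells Gpr34 stood at 1473 CPM (1464 to 1482) in microglia and 266 CPM (263 to 269) in macrophages, a log2 ratio of 2.47, with 2.07 to 2.91 within the 8 pairs. Gpr34 is on the X chromosome, and its female pools were neither all higher nor all lower than its male pools.

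P2ry12 and P2ry13 lie next to each other on chromosome 3, on the minus strand, inside the gene Med12l, which runs on the plus strand. In GENCODE M21, 9 of the 2546 exon bases of P2ry12 overlap exons of Med12l, and 0 of the 2528 exon bases of P2ry13 do. Med12l, a Mediator subunit gene, stood at 71.8 CPM in microglia and 20.7 CPM in macrophages. Whether the counting used strand is not stated, so part of the P2ry12 counts at the overlap cannot be assigned to 1 gene. The promoters are shown because the neighbours P2ry12 and P2ry13 varied together between single microglia, while P2rx4 had the opposite cell type pattern. Each sequence has 250 bases before and 50 after the annotated start, from RefSeq on build GRCm38.p6, read on the strand of the gene. RefSeq promoters were matched for 5 of the 7 genes. Capitals mark GAGGAA, the core bound by PU.1, the myeloid lineage factor.
P2ry12 (chr3:59262936-59263235, minus strand): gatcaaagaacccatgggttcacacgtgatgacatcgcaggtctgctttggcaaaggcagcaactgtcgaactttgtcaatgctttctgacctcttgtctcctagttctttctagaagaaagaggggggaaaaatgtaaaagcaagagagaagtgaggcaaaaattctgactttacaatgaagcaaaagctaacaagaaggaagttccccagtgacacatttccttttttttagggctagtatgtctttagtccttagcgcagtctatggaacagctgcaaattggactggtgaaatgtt
P2ry13 (chr3:59210833-59211132, minus strand): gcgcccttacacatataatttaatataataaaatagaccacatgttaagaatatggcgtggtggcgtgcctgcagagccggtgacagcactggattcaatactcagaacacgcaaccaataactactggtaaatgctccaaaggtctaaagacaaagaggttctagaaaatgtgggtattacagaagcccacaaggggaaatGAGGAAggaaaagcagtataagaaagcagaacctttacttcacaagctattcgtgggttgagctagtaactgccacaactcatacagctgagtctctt
P2rx4 (chr5:122707294-122707593, plus strand): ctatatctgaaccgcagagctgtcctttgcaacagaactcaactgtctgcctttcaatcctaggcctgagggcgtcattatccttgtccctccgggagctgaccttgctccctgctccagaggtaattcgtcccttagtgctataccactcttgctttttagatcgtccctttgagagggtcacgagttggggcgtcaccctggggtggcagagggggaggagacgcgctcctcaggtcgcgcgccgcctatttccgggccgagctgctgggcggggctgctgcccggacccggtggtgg
P2ry13 held the core once, starting at base 203 of the sequence, and P2ry12 and P2rx4 held it 0 times on either strand. Of the promoters not printed, both of P2rx7 held it once, and of those of Entpd1 one held it 2 times and the other 0 times. Among 32851 promoters of the same length, 28.3% held it at least once. A match is only a match of letters, and its absence here says nothing about binding elsewhere.

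P2ry6, the UDP receptor, was at a like level in both cell types when all cells were summed. It ranged over the pools between 739 CPM (WT of 530s) and 1051 CPM (KO of 524s) in microglia and between 801 CPM (KO of 060s) and 1517 CPM (Het of 524s) in macrophages. The level over all cells was 855 CPM (848 to 861) in microglia and 897 CPM (892 to 902) in macrophages. The log2 ratio of -0.07 lay near the middle of all genes, above 45.0% of them. Within pairs of pools it ran between -0.90 and 0.05. Within Het every microglia pool, at 813 to 849 CPM, lay below every macrophage pool, at 869 to 1517 CPM.

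P2rx4, a channel opened by ATP and known for its part in neuropathic pain, had 428 and 381 CPM in KO microglia, 274, 448 and 276 CPM in Het microglia and 324, 478 and 335 CPM in WT microglia. KO macrophages had 742 and 687 CPM, Het macrophages 726, 757 and 786 CPM, and WT macrophages 544, 528 and 605 CPM. The highest microglia pool, WT of 529s, lay close to the lowest macrophage pool, which was from the same plate and genotype. Over all cells P2rx4 stood at 343 CPM (338 to 347) in microglia and 653 CPM (648 to 658) in macrophages. The log2 ratio of -0.93 was lower than that of most genes, with 4.7% of them below it. The pairs of pools gave -1.51 to -0.14. In Het alone the ratio was -1.31, past 2-fold.

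P2rx7, the other channel, had 544 and 701 CPM in KO microglia, 725, 577 and 551 CPM in Het microglia and 539, 960 and 471 CPM in WT microglia. In macrophages the KO pools had 921 and 1401 CPM, the Het pools 650, 800 and 618 CPM, and the WT pools 857, 760 and 997 CPM. The cell types overlapped, and microglia were the higher in the pairs Het of 056s and WT of 529s, with log2 ratios of 0.16 and 0.34. Within KO both microglia pools of P2rx7 lay below both macrophage pools. Over all cells it stood at 622 CPM (616 to 627) in microglia and 857 CPM (852 to 862) in macrophages, a log2 ratio of -0.46, and the 8 pairs gave -1.08 to 0.34. In GENCODE M21 an exon of the small RNA gene Mir8115 covers 119 of its 5970 exon bases.

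Entpd1, the enzyme that removes ATP and ADP, was higher in microglia in each of the 8 pairs, and past 2-fold in 1 of them, KO of 524s (2.10-fold). It ranged between 461 CPM (Het of 056s) and 792 CPM (Het of 529s) over the microglia pools and between 371 CPM (KO of 524s) and 654 CPM (Het of 524s) over the macrophage pools, so the types overlapped, although within KO both microglia pools lay above both macrophage pools. Over all cells it stood at 665 CPM (660 to 671) in microglia and 454 CPM (450 to 458) in macrophages. The log2 ratio was 0.55, with 0.13 to 1.07 within pairs.

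**Figure D2:**
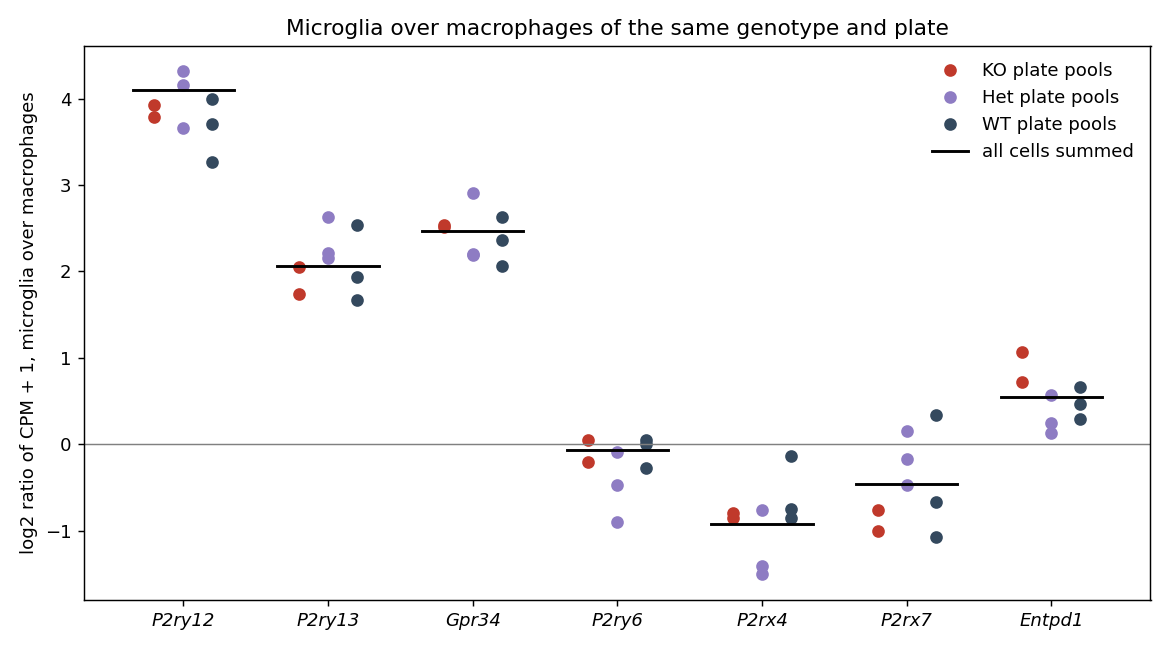
Log2 ratio of CPM + 1, microglia over macrophages, for each gene in the 8 pairs of pools of the same genotype and plate (dots) and over all cells (lines). P2ry12 ratios run between 3.26 and 4.32 and P2rx4 ratios between -1.51 and -0.14, while those of P2ry6 and P2rx7 fall on both sides of 0.

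The order of the genes within a cell type was compared per kilobase of exon, since longer transcripts give more counts in a full-length method. In microglia the level was 2303 CPM per kb for P2ry12, 877 for P2ry13, 705 for Gpr34 and 296 for P2ry6. Below them came Entpd1 at 119 CPM per kb, P2rx7 at 104 and P2rx4 at 48.8. In macrophages P2ry6 led with 311 CPM per kb, followed by P2ry13 at 210, P2rx7 at 144, P2ry12 at 134, Gpr34 at 127, P2rx4 at 93.0 and Entpd1 at 81.3. On this scale the receptors for ADP headed the order in microglia and the receptor for UDP headed it in macrophages. Exon lengths are those of all annotated isoforms joined, so neighbours such as Entpd1 and P2rx7 in microglia, or P2ry12 and Gpr34 in macrophages, are not separated by this scale. The joined length was 7025 bases for P2rx4, 5970 for P2rx7 and 5580 for Entpd1, against 2887 for P2ry6. If the transcripts present were shorter than that, these genes would rank higher. Their low ranks and the lead of P2ry6 in macrophages therefore depend on the lengths used.

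The single cells showed how far each gene parts the types. For P2ry12 the 10th percentile of microglia, 1680 CPM, lay above the 90th percentile of macrophages, 840 CPM. Only 1 of 400 macrophages exceeded the microglia median of 4690 CPM, and 9 of 215 microglia lay below that 90th percentile. P2ry13 and Gpr34 parted the types less well, with 64 and 46 of 215 microglia below the 90th percentile of macrophages, and 5 and 8 of 400 macrophages above the microglia median. For the other genes the distributions lay over each other: 188 macrophages exceeded the microglia median for P2ry6, 310 for P2rx4, 234 for P2rx7 and 106 for Entpd1. P2rx7 varied widely between macrophages, with a median of 611 CPM, a 90th percentile of 2223 CPM and a highest cell of 7448 CPM.

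**Figure D3:**
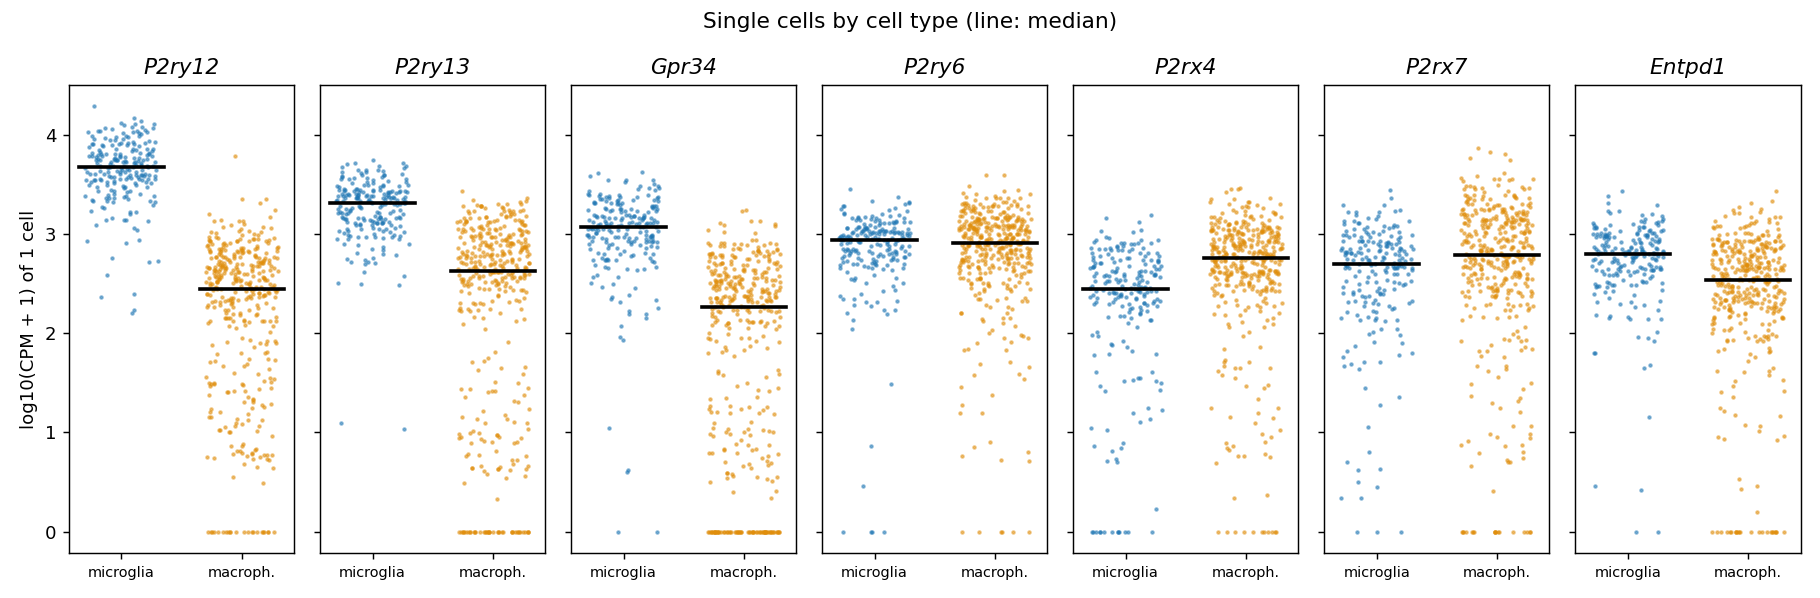
Level of each gene in single microglia (left, 215 cells) and macrophages (right, 400 cells), as log10 of CPM + 1, with the median as a line. P2ry12 has medians of 4690 CPM in microglia and 280 CPM in macrophages, while the clouds of P2ry6 lie at the same height.

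All 7 genes were found in most cells of both types. With every cell thinned to 50000 counts, which left out 10 microglia and 25 macrophages, P2ry12 had a count in 100% of microglia (exact 95% interval 98.2% to 100%) and 84.8% of macrophages (80.8% to 88.3%). P2ry13 was found in 99.5% of microglia and 79.2% of macrophages, and Gpr34 in 98.5% of microglia and 71.5% of macrophages. The shares were 97.6% of microglia and 97.3% of macrophages for P2ry6, 90.7% and 93.1% for P2rx4, 94.6% and 91.2% for P2rx7, and 98.5% and 92.0% for Entpd1. Unthinned, the shares were 94.5% of macrophages for P2ry12, 90.0% for P2ry13 and 83.5% for Gpr34, beside 99.1% to 100% of microglia. Cells without these 3 genes were therefore found mainly among macrophages.

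The low P2ry12 of macrophages did not keep the proportion to Tmem119 and Sall1 that microglia had. The ratio of P2ry12 to Tmem119, a surface protein of microglia, was 0.996 in microglia and 4.66 in macrophages on the CPM scale. For Sall1, a transcription factor of microglia, the ratio was 15.1 in microglia and 47.8 in macrophages. Relative to Tmem119 and Sall1, macrophages thus held more P2ry12 than microglia did. Whether any of it came from microglial RNA in the wells was not tested.

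Microglia carried perivascular macrophage transcripts to a varying degree, and the levels of both channels varied with them. The 15 markers of that type, such as Mrc1 and Cd163, had a median sum of 15220 CPM per cell in microglia and 35858 CPM in macrophages, and 0 of the 15 were absent from microglia. Their sum ranged over pools between 10371 and 19742 CPM in microglia and between 31210 and 42060 CPM in macrophages. In the 59 microglia whose sum lay below that of every macrophage, P2rx7 stood at 302 CPM and P2rx4 at 254 CPM. In the 49 microglia within the range of macrophages, at or above their 10th percentile, P2rx7 stood at 769 CPM and P2rx4 at 435 CPM. P2ry12 went the other way, at 7351 CPM in those 59 and 4531 CPM in those 49, as did Gpr34 at 2038 and 1118 CPM. Entpd1 stood at 761 CPM in the 59 and 526 CPM in the 49, P2ry13 at 2361 and 2248 CPM, and P2ry6 at 730.5 and 881 CPM.

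Set against all macrophages, the 59 microglia with the least of these markers gave log2 ratios of -1.50 for P2rx7 and -1.36 for P2rx4, both past 2-fold. Over all microglia these ratios were -0.46 and -0.93, so the call of the channels turned on which microglia were used. The ratios of the other genes were 4.43 for P2ry12, 2.93 for Gpr34, 2.15 for P2ry13, 0.74 for Entpd1 and -0.30 for P2ry6. With only the 49 cells left out, P2rx4 was at -1.06 and P2rx7 at -0.57. This division of microglia was made after the data were seen. The part of macrophage RNA in the levels of P2rx4 and P2rx7 in microglia was not tested.

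The 7 genes were also compared over single cells, where values share library and depth, so that the correlations are descriptions. Over the 215 microglia P2ry12 varied with P2ry13 (Pearson r 0.61, Spearman rho 0.56) and with Gpr34 (0.44 and 0.60), and P2ry13 with Gpr34 (0.31 and 0.38). P2ry12 also varied with the sum of 14 other microglia markers (0.65 and 0.62). P2rx4 and P2rx7 were nearly unrelated to P2ry12, with r of -0.05 and 0.06. They varied instead with the perivascular marker sum, with r of 0.45 and rho of 0.30 for P2rx4, and 0.36 and 0.33 for P2rx7. P2ry6 had r of 0.35 with that sum but rho of 0.06. For P2ry12 r was -0.09 and rho -0.35, and for Gpr34 0.06 and -0.27. For P2ry13 the values were -0.01 and -0.12, and for Entpd1 0.11 and -0.15. P2ry6 had r of 0.39 with Entpd1 and 0.35 with P2rx4 but rho of 0.20 and 0.09, so that their ranks were less related. Over the 400 macrophages all pairs lay between -0.07 and 0.12, and P2ry12 with P2ry13 had r of 0.07.

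**Figure D4:**
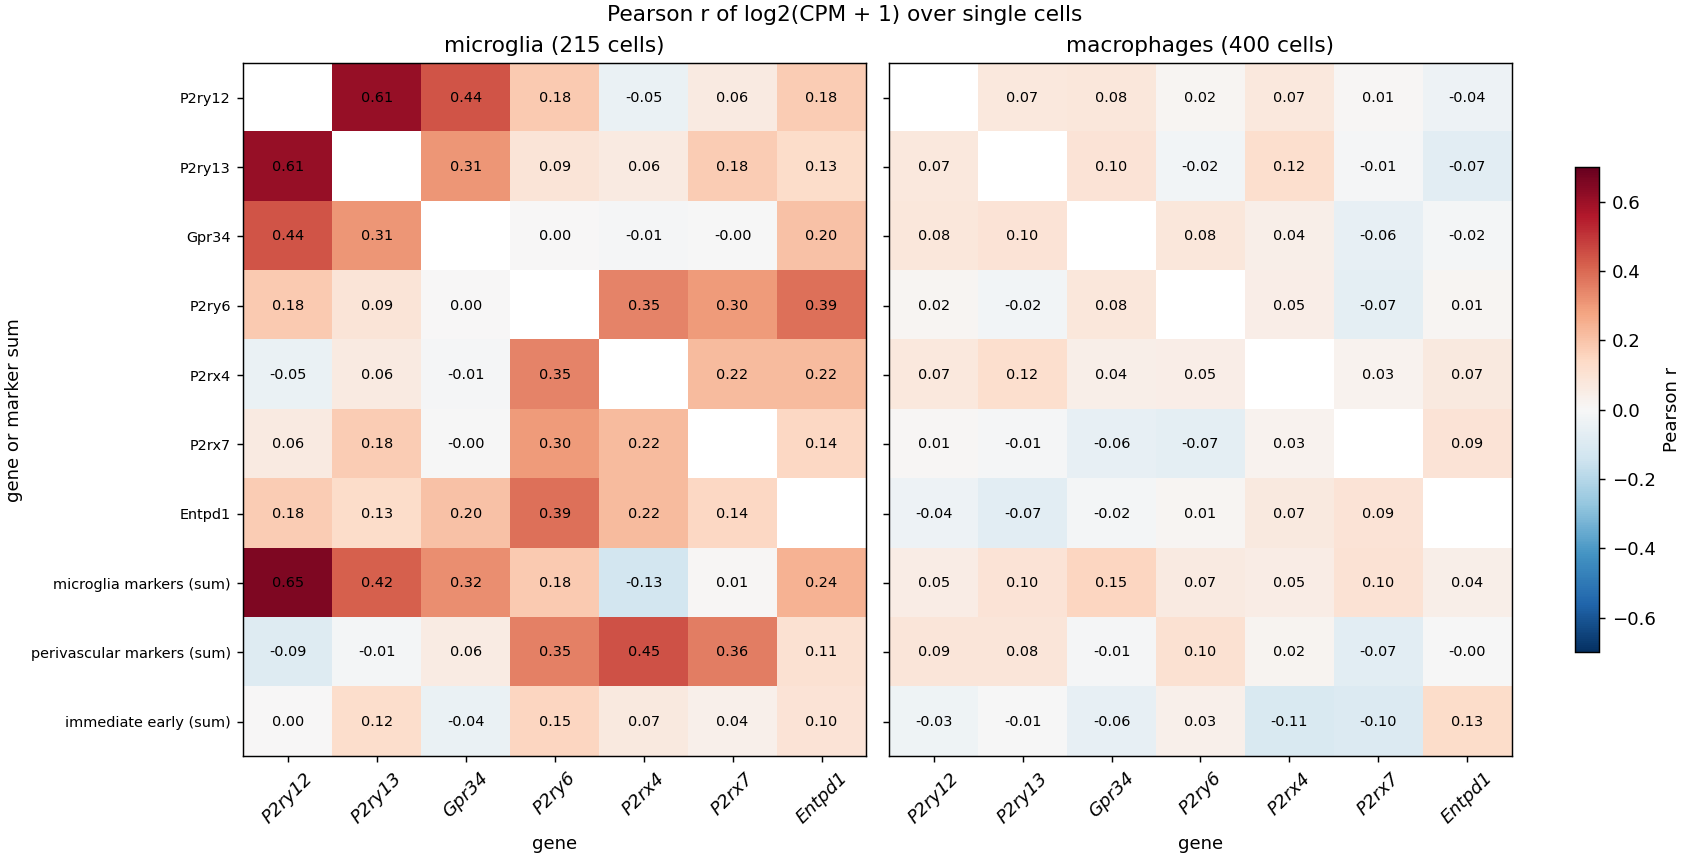
Pearson r of log2(CPM + 1) between the genes (columns) and the genes and marker sums (rows), over single microglia (left) and macrophages (right). In microglia P2ry12, P2ry13 and Gpr34 have r of 0.31 to 0.61 with each other, and in macrophages all pairs of genes lie between -0.07 and 0.12.

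Over the 16 pools, the genes most like each member of the set by Pearson r of log2(CPM + 1) were counted among 9345 genes. For P2ry12 they were Gpr34 (0.987), the transporter gene Slco4a1 (0.983) and the cytokine gene Il1a (0.979). For P2ry13 they were P2ry12 (0.971), Slco4a1 (0.961) and Tgfbr1 (0.960), the receptor for TGF-beta, and for Gpr34 they were P2ry12 (0.987), Slco4a1 (0.968) and Tmem100 (0.968). For P2rx4 they were Sema4a (0.909), the scavenger receptor gene Colec12 (0.886) and the mannose receptor gene Mrc1 (0.884). P2rx7 was nearest to Tln2 (0.845), Calcoco1 (0.789) and the chemokine gene Ccl24 (0.773), and Entpd1 to Rhoh (0.877), Cyb561a3 (0.872) and Tspan7 (0.871). P2ry6 had no gene above 0.774, which was reached by the transferrin gene Trf, followed by Ptprn (0.771) and Mfsd7a (0.770). The 16 pools include both cell types, so the difference between types enters each of these values.

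Within single microglia the nearest genes to P2ry12 were Selplg (0.66), Sparc (0.62) and P2ry13 (0.61), among 6714 genes. P2ry13 was nearest to P2ry12, and then to Crybb1 (0.46) and Rsrp1 (0.44). Gpr34 was nearest to Fcrls (0.57), P2ry12 (0.44) and Cd53 (0.40). P2ry12 and P2ry13 were thus each among the 3 nearest genes of the other. P2rx4 had Ms4a7 (0.49), Mrc1 (0.49) and Adgre1 (0.46), and P2rx7 had Mrc1 (0.43), Clec4a1 (0.40) and Adgre1 (0.40). Ms4a7 and Mrc1 belong to the list of perivascular markers, and Adgre1 encodes a macrophage surface antigen. P2ry6 had Tsc22d4 (0.52), Fgd2 (0.51) and Pdia6 (0.44), and Entpd1 had Adipor1 (0.41), Abca9 (0.41) and P2ry6 (0.39). Over single macrophages no gene exceeded 0.23 with any of the 7, the highest being Ntpcr with P2ry6.

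The second question was whether Notch3 genotype went with the level of these genes. None of the 7 reached a 2-fold difference in any of the 6 comparisons, and in most comparisons the pools overlapped. In KO microglia P2ry13 stood at 2412 CPM (95% interval 2391 to 2434), against 2378 CPM (2359 to 2398) in Het and 1929 CPM (1913 to 1945) in WT. Its log2 ratio of KO over WT was 0.32. Both KO pools, 2566 and 2292 CPM, lay above the WT pools of 1529 to 2034 CPM. Of the Het pools, at 1965 to 2477 CPM, the highest lay above the KO pool of plate 524s and below that of plate 060s. The other 6 genes had log2 ratios of 0.02 (Gpr34) to 0.23 (P2ry6) for KO over WT microglia, and their pools overlapped. Of all 6372 genes, 8.82% reached 2-fold either way, and every KO pool lay above every WT pool for 9.82% and below for 7.27%, so 1 gene of 7 above and 0 below is near the background.

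KO over Het microglia gave log2 ratios between -0.29 (P2ry12) and 0.45 (P2rx4). All 7 genes overlapped between pools, beside 11.9% of genes past 2-fold, 9.54% with all KO pools above and 6.76% with all below. Het over WT microglia gave ratios between -0.26 (Entpd1) and 0.38 (P2ry12). Without plate 056s the ratio of Entpd1 was 0.19. Again all 7 overlapped, beside 12% past 2-fold, 4.12% above and 4.11% below. P2ry12 stood at 5563 CPM in KO, 6796 CPM in Het and 5232 CPM in WT microglia. The WT figure rested on plate 059s: without that plate the ratio of Het over WT was 1.25, past 2-fold, and that of KO over WT was 0.96.

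In macrophages the KO pools of P2ry13 and P2rx4 lay above the WT pools. P2ry13 stood at 712 CPM (699 to 724) in KO, 519 CPM (512 to 526) in Het and 486 CPM (481 to 492) in WT macrophages. The median cell had 602 CPM in KO, 360 CPM in Het and 412 CPM in WT. The log2 ratios were 0.55 for KO over WT and 0.45 for KO over Het, and the KO pools, 768 and 551 CPM, were above all 6 control pools, of 316 to 534 CPM. The lower KO pool, plate 524s, exceeded the highest control pool by little, and without plate 060s the ratio over WT was 0.18 and that over Het 0.09. P2rx4 stood at 728 CPM (715 to 740) in KO, 732 CPM (724 to 741) in Het and 579 CPM (573 to 585) in WT macrophages. The log2 ratio was 0.33 for KO over WT and -0.01 for KO over Het, and both KO pools, 742 and 687 CPM, lay above the WT pools of 528 to 605 CPM. The remaining ratios of KO over WT were -0.22 for Entpd1 to 0.44 for P2ry12. Marker sums also differed between the genotypes of macrophages. The 14 microglia markers, of which 0 were absent, summed to 24704 CPM in KO (pools of 24197 to 26147), 18968 CPM in Het (18296 to 24889) and 21338 CPM in WT (15847 to 22693). The immediate early genes summed to 767 CPM in KO, 1728 CPM in Het and 1678 CPM in WT macrophages. Their pools overlapped, at 625 to 1170 CPM in KO, 1145 to 1810 CPM in Het and 952 to 5047 CPM in WT. The part of these sums in the levels of P2ry13 and P2rx4 was not tested. Of 4949 genes, 6.24% reached 2-fold in KO over WT macrophages, 9.21% had every KO pool above and 13.4% every KO pool below, against 2 and 0 of the 7.

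P2rx7 had the largest ratio of the 7 in KO over Het macrophages, at 0.67, with 1046 CPM (1031 to 1061) in KO, 657.5 CPM (649 to 666) in Het and 932 CPM (924 to 940) in WT. Its KO pools, 921 and 1401 CPM, lay above the Het pools of 618 to 800 CPM, while the WT pools of 760 to 997 CPM overlapped both. In the KO pool of plate 524s 1 cell supplied 26.1% of the P2rx7 counts. Without plate 060s, which left that pool alone for KO, the ratio over Het was 1.09, past 2-fold. P2ry13 and P2rx7, 2 of 7, lay above in every KO pool against Het, and 0 lay below. Of 5299 genes, 15.8% were past 2-fold in KO over Het macrophages, 8.32% had all KO pools above and 9.06% all below.

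In Het over WT macrophages the ratios ran between -0.50 for P2rx7 and 0.63 for Gpr34. Gpr34 had 342 CPM in Het and 220 CPM in WT, but its pools overlapped. Without plate 056s the ratio of Gpr34 was 0.22. That of P2ry6 was then 0.62, against 0.10 over all plates, and that of P2ry13 -0.20, against 0.09. The ratio of P2rx4 stayed between 0.30 and 0.44 with any 1 plate left out. P2rx4, at a log2 ratio of 0.34, was the gene whose 3 Het pools, 726 to 786 CPM, all lay above the 3 WT pools, 528 to 605 CPM. That is 1 of 7 above and 0 below, beside 3.9% of 5337 genes above and 6.01% below, with 11.8% past 2-fold. The median log2 ratio over all genes lay between -0.08 and 0.02 in the 6 comparisons. With Rn18s kept in the total, that median shifted by -0.41 in KO over Het macrophages, 0.47 in Het over WT macrophages, -0.20 in KO over Het microglia and -0.16 in KO over WT microglia, and the 7 genes shifted with it. Ratios of -0.10 to 0.20 then had the opposite sign: P2ry12, Gpr34, P2rx7 and Entpd1 in KO over WT microglia, P2ry13 in KO over Het microglia, P2ry12 in KO over Het macrophages and Entpd1 in Het over WT macrophages.

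**Figure D5:**
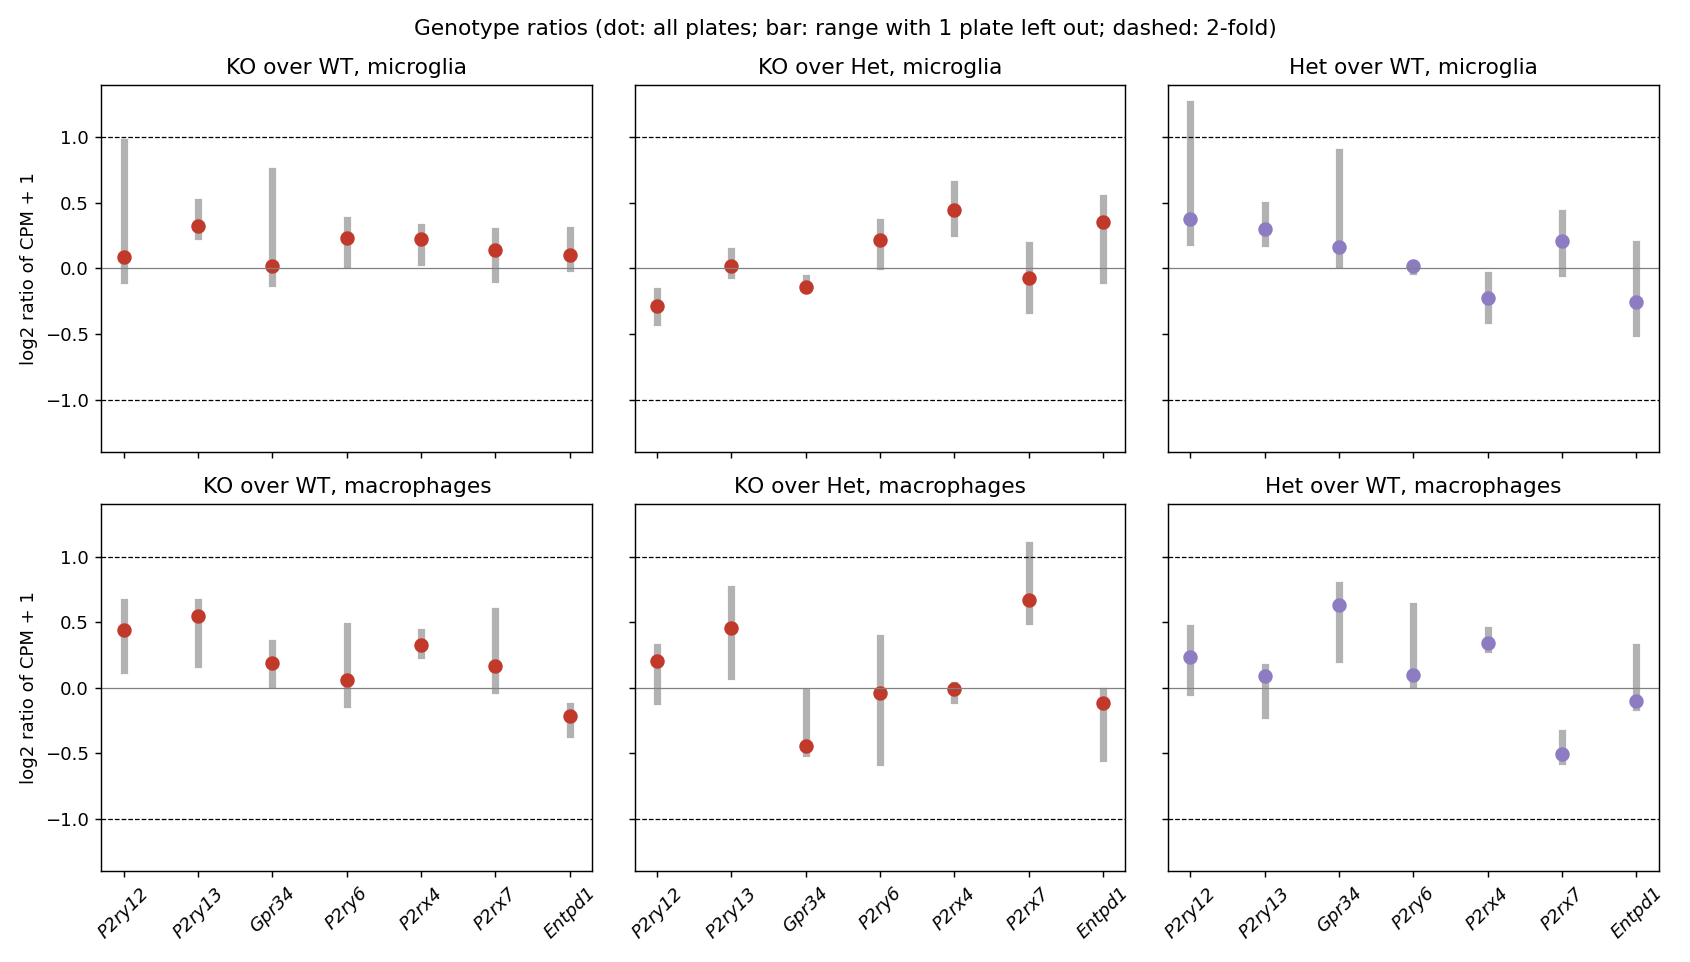
Log2 ratio of CPM + 1 for each gene in the 6 genotype comparisons, over all plates (dots) and as the range when 1 plate is left out (bars). Dashed lines mark 2-fold. Every dot lies within 2-fold, and the bars of P2ry12 in Het over WT microglia and of P2rx7 in KO over Het macrophages reach past it.

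Plates that held 2 genotypes allow a comparison within the plate, although sex went with genotype in both. On plate 524s KO was female and Het male. There P2ry12 in microglia was equal, with a log2 ratio of KO over Het of -0.00, and P2ry13 was at 0.22. In macrophages of that plate the ratios were 0.80 for P2ry13, 0.81 for P2rx7 and -0.82 for Entpd1. Both P2ry13 and P2rx7 thus kept the direction of all plates, with 21 KO and 16 Het cells, while P2ry12, at -0.27, had the opposite sign to its ratio of 0.20 over all plates. In these macrophages the oligodendrocyte markers summed to 543 CPM in KO and 1645 CPM in Het and the platelet markers to 0 CPM in KO and 63.5 CPM in Het, and their part was not tested. The median macrophage of plate 524s had 378 CPM of P2ry13 in KO and 16.1 CPM in Het.

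On plate 529s Het was female and WT male. Het over WT microglia gave 1.01 for P2ry12, 0.84 for Gpr34, 0.71 for Entpd1, -0.79 for P2rx4 and -0.80 for P2rx7. In the WT microglia of that plate, 15 cells, 1 cell supplied 41.7% of the P2ry12 counts. Marker sums moved with these ratios. The 14 microglia markers summed to 79175 CPM in Het and 46668 CPM in WT microglia of the plate, the 15 perivascular markers to 10972 and 19742 CPM, and the 15 immediate early genes, induced within minutes of stress, to 829 and 4736 CPM. Their part in the ratios was not tested. In macrophages of plate 529s Het over WT gave 0.56 for P2ry12, 0.59 for P2ry13 and 0.57 for P2rx4. There the microglia markers summed to 21991 CPM in Het and 15847 CPM in WT, the perivascular markers to 37280 and 42060 CPM, and the immediate early genes to 1145 and 5047 CPM, and their part was likewise not tested.

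The rest of the purine pathway was read from a list of 34 other receptors, enzymes and transporters, of which 6 reached the floor of 20 CPM and 25% of cells. Of these 6, 3 were at least 2-fold higher in microglia and 0 lower, with a median log2 ratio of 0.65. Adora3 and P2rx1 reached the floor in microglia alone, so for them the floor itself favours a higher level in microglia. Among all 6230 genes at the floor, 7.91% were at least 2-fold higher and 3.61% at least 2-fold lower. Adora3, an adenosine receptor, stood at 58.2 CPM in microglia and 1.12 CPM in macrophages, with a count in 74.0% and 4.75% of cells. P2rx1, a further ATP channel, stood at 34.0 CPM in microglia and 6.20 CPM in macrophages, and Slc29a3, a nucleoside transporter of lysosomes, at 503 and 239 CPM. P2rx1, like P2ry12, is also a gene of platelets, and the 6 platelet markers summed to 52.0 CPM in microglia (pools of 7.57 to 140) and 5.97 CPM in macrophages (0 to 63.5), with Gp6 at 0 in both. The part of platelets was not tested. Nt5e, the enzyme CD73 that turns AMP into adenosine and so completes the work of Entpd1, stood at 0.523 CPM in microglia and 0.748 CPM in macrophages. The other P2ry genes of the list, P2ry1, P2ry2, P2ry4, P2ry10 and P2ry14, were at 1.32 CPM or less in both types. Between genotypes, P2rx1 in KO over Het microglia was the single listed gene past 2-fold in the 6 comparisons, at a log2 ratio of 1.08. It reached 20 CPM in KO, at 39.9 CPM, but not in Het, at 18.4 CPM. That is 1 of 6 at the floor, beside 11.9% of all genes past 2-fold in that comparison.

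Of 20 genes that act downstream of the receptors, 18 reached the floor, 2 were at least 2-fold higher in microglia and 0 lower, with a median log2 ratio of 0.18. Among all 6230 genes at the floor, 7.91% were at least 2-fold higher and 3.61% lower, so 2 of 18 is near the background. Plcb2, a phospholipase C, stood at 115 CPM in microglia and 16.2 CPM in macrophages, and reached the floor in microglia alone. Kcnk13, a potassium channel of microglia that P2ry12 can activate, stood at 115 CPM in microglia and 33.4 CPM in macrophages. Gnai2, the inhibitory G protein subunit used by P2ry12, did not share this difference, at 282 CPM in microglia and 378 CPM in macrophages. The inflammasome genes Nlrp3, at 57.1 CPM in microglia and 31.2 CPM in macrophages, and Pycard, at 135 and 70.1 CPM, were below 2-fold. In KO over Het macrophages Kcnk13 (log2 ratio 1.22) and Rac2 (1.01) were past 2-fold above and Gnaq (-1.25) below, of 16 at the floor, beside the 15.8% of all genes past 2-fold in that comparison. Of the microglia markers, 13 reached the floor there, with 6 past 2-fold above and 1 below, and their part was not tested. In Het over WT macrophages Nlrp3 (-1.83), Rac1 (-1.13) and Rac2 (-1.03) were past 2-fold below, of 17 at the floor, beside the 11.8% of all genes in that comparison. Nlrp3 reached the floor there in WT alone, at 45.1 CPM beside 12.0 CPM in Het. The other 4 genotype comparisons had 0 in either direction.

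In the 14 cells of the type named 7, P2ry12 stood at 778 CPM (717 to 843), P2ry13 at 554 CPM, Gpr34 at 310 CPM and Entpd1 at 369 CPM. P2ry6 stood at 715 CPM, P2rx4 at 633 CPM and P2rx7 at 470 CPM. P2ry12 thus lay between the levels of microglia and macrophages, nearer to macrophages. The top cell for each gene supplied between 23.9% (P2ry12) and 61.2% (P2ry6) of its counts in this type. With 6 KO, 4 Het and 4 WT cells, no comparison between genotypes was made for this type.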

How the data were processed

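Single brain cells of Notch3 KO, Het and WT mice were sequenced by SMART-seq2. The authors deposited whole-number counts per gene symbol, 1 column per cell, without normalisation. The aligner STAR is named in the submitters' processing notes without a version. The build, annotation, counting program, strand setting and any filter on cells are not given in the sources used here. The 92 ERCC spike-ins (1.22% of counts) were set aside, and all 629 columns were matched to labels by name.

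Levels were computed from the deposited counts as CPM of the sum over cells. Rn18s was left out of the total, because its median share per cell was 15.8% on one plate and 54.5% on another and it took 40.4% of all counts. Ratios were formed on CPM + 1. A gene was called apart at 2-fold, where either group had 20 CPM and a count in 25% of cells. Shares carry exact Clopper-Pearson intervals. Pools needed 10 cells. No label names an animal, so a group was treated as 1 sample and no test was run, and the script was tested on simulated counts of known fold. Genes named as most alike are the 3 with the highest r, without predicted, ribosomal and mitochondrial genes, pseudogenes, Xist and Y-linked genes. Other genes of the X chromosome, such as Gpr34, were kept. From the lists of purine pathway and downstream genes, those past 2-fold are named. From the other lists not every gene past 2-fold is named. Other listed genes that are named were chosen after their values were seen.

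The 7 genes, the lists and the rules were chosen with earlier results of these data known. Alternatives used edgeR 4.0.16 TMM factors and DESeq2 1.42.0 size factors in R 4.3.3, other levels, pseudocounts, floors, depths and cells, and each plate left out. Python 3.11.15, pandas 2.3.3, numpy 2.4.6, scipy 1.17.1 and matplotlib 3.10.9 were used. Gene lengths and overlaps come from GENCODE M21, which may not be the annotation of the counts.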

Additional observations from a re-analysis of the deposited data

How the results depend on the processing

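P2ry12, P2ry13 and Gpr34 were at least 2-fold higher in microglia under every alternative run, with log2 ratios of 3.83 to 4.43 for P2ry12, 1.90 to 2.15 for P2ry13 and 2.37 to 2.93 for Gpr34. P2rx4 crossed 2-fold below, at -1.06, with the 49 microglia of macrophage-range marker sums left out, and P2rx4 (-1.36) and P2rx7 (-1.50) did so with the 59 microglia below every macrophage alone. Both divisions were chosen after seeing the data. The count of genes past 2-fold between genotypes was 0 in all 6 comparisons and departed from 0 in 3. In Het over WT macrophages it was 1 (Gpr34) with Rn18s kept in the total, where all ratios shift with the share of Rn18s, and 1 (Gpr34) at a 1.5-fold limit. In KO over Het macrophages it was 1 (P2rx7) at a 1.5-fold limit, and 0 to 1 with 1 plate left out, 1 (P2rx7) without plate 060s. In Het over WT microglia it was 0 to 1 with 1 plate left out, 1 (P2ry12) without plate 059s, and 1 (P2ry13, log2 ratio 1.07) with the 59 microglia below every macrophage alone. The cause was not tested. No called ratio changed sign. TMM and DESeq2 factors moved the median of all genes by less than keeping Rn18s did in 4 of the 6 genotype comparisons, and under them P2ry13 in KO over Het microglia (both) and P2rx4 in KO over Het macrophages (DESeq2), ratios near 0, had the opposite sign. No paired test was run, as no label names the animals. Microglia and macrophage pools of the same genotype and plate are set side by side as ratios only. Depth limits the shares of macrophages with a count, which for P2ry12 was 84.8% thinned and 94.5% unthinned, and 2 KO plates, 3 Het plates and 3 WT plates limit what can be said of genotype.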
